A study of Mus musculus with 9 samples.

Results

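The 9 genes described here, Gbp2, Gbp3, Gbp5, Gbp6, Gbp7, Igtp, Irgm1, Irgm2 and Iigp1, encode interferon-inducible GTPases, and they were followed across the cell classes of the adult mouse ventricular-subventricular zone (vSVZ) and its migratory path in mice with and without interferon receptors. They were chosen by name and family as typical targets of interferon-γ and make up 9 of the 32287 gene IDs measured. The level of a gene is given in CPM, its unique molecular identifiers (UMIs, counts of distinct captured transcripts) per 1000000 UMIs of a cell class, in each library and, where antibody hashtags allowed it, in each mouse.

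Interferon-inducible GTPases are among the most strongly induced products of interferon signalling in mouse cells. Type-II interferon acts through the receptor chain Ifngr1 and, in the nucleus, on gamma-activated sequences (GAS), while type-I interferon acts through Ifnar1 and on interferon-stimulated response elements (ISRE). The guanylate-binding proteins (GBPs) are large GTPases that assemble on membranes of intracellular pathogens and on damaged vacuoles. The immunity-related GTPases (IRGs) are smaller: Igtp, Irgm1 and Irgm2 belong to the regulatory GMS group, which guards host membranes, and Iigp1 is an effector of the GKS group that coats parasite vacuoles.

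Single-cell RNA sequencing with droplet chemistry was carried out on male TiCY mice, in which the Tlx (Nr2e1) promoter drives a tamoxifen-dependent Cre recombinase and a ROSA26 reporter then marks neural stem cells and their progeny with eYFP. Wild-type (WT) mice were compared with IFNAGR knockouts (KO), whose Ifnar1 and Ifngr1 receptor genes were targeted, and all mice carried the TiCY alleles and received tamoxifen. The receptor knockout mice had been backcrossed to C57BL/6, and the strain designation of the TiCY mice also names a Fas allele. WT young mice were 16 weeks old with tamoxifen at 10 weeks and a chase of 6 weeks. WT old mice were 80 weeks old with tamoxifen at 71 weeks. KO young mice were 16 weeks old with tamoxifen at 7 weeks, and KO old mice 92 to 105 weeks with tamoxifen at 85 and 98 weeks, and these 3 groups had a chase of 9 weeks. Cells negative for CD45, Ter119 and O4 were sorted from the vSVZ (eYFP+ and GLAST+ cells) and from RoB, the combined tissue of olfactory bulb, migratory stream and striatum, so that the immune and oligodendrocyte lineages were depleted before sequencing. No interferon was given, and the 2 mice of each group were run in 1 reaction, so that genotype or age cannot be told apart from the reaction.

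After filtering, 18055 cells remained, 2396 to 6461 per library, with a median of 5026 to 7393 UMIs per cell. Between 1253 and 1794 cells per library had a hashtag call that named the tissue and the mouse, and 30 barcode sequences occurred in more than 1 library. The targeted receptor Ifngr1 stood at 69.2 to 84.5 CPM in astroglia-like cells of the 4 WT mice and at 2.08 to 6.29 in those of the 4 KO mice, and Ifnar1 at 22.96 to 26.8 and 2.65 to 4.802, in the direction the labels state. Ifng, the gene of interferon-γ itself, had 1 UMI in all retained cells. Barcodes with almost no RNA, which sample free transcripts, held 13.8 to 68.5 CPM of the 9 genes together, while neuroblast-like cells in the same libraries held 0.477 to 2.10. The intervals on levels cover counting error only.

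On GRCm38 the members lie in 4 places. Gbp5 (chr3:142493978-142522344), Gbp7 (chr3:142530342-142550149), Gbp3 (chr3:142560026-142573209) and Gbp2 (chr3:142620602-142638008) stand side by side on the plus strand of chromosome 3, with Gbp2b between Gbp3 and Gbp2. Gbp6 (chr5:105270702-105293698) lies on the minus strand of chromosome 5. Igtp (chr11:58199556-58207591) and Irgm2 (chr11:58199618-58222782) overlap on the plus strand of chromosome 11, and Irgm1 (chr11:48861968-48871683) lies elsewhere on that chromosome on the minus strand. Iigp1 is on the plus strand of chromosome 18, 60376027 to 60392634. All are annotated as protein coding. UMIs of the overlapping Igtp and Irgm2 genes, and of the similar Gbp genes of chromosome 3, may have been split between neighbours by the counting and are uncertain to that extent.

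The most abundant member differed between classes. Over all 4 libraries, Gbp7 supplied 63.6% of the members' UMIs in astroglia-like cells and 55.4% in microglia-like cells. In WT ensheathing glia-like cells the members' UMIs were shared out among Gbp7 (27.0%), Iigp1 (21.2%), Gbp6 (20.01%) and Gbp3 (12.5%). In KO ensheathing glia-like cells Gbp7 supplied 46.5% and Iigp1 0.131%.

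By symbol, 7 of the members had an entry in the RefSeq promoter table (GRCm38.p6), while Gbp6 and Iigp1 had none. The starts used here are those of RefSeq and need not match the gene positions above, which are from GENCODE. The lines of Gbp5, Irgm1 and Irgm2 lie inside those gene positions, and the lines of Gbp2 and Gbp3 reach into them. The bases just upstream of the annotated start are shown because 6 of these 7 members held an ISRE-like match there, while in Gbp5 that match lay farther upstream, 165 bases before the start, and its line holds a GAS match only. Capitals mark matches on either strand to the ISRE-like letters (GAAA, then any 2 bases, then GAAA) and to the GAS letters TTCNNNGAA, and every line runs 5′ to 3′ over the last 120 bases before the start.
Gbp2, chr3:142620543-142620662, plus strand: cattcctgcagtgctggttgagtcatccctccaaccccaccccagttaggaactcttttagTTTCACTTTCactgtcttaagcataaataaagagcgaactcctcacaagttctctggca
Gbp3, chr3:142559924-142560043, plus strand: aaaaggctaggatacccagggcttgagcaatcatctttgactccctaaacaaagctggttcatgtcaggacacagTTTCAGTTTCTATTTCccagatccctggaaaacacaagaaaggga
Gbp5, chr3:142496814-142496933, plus strand: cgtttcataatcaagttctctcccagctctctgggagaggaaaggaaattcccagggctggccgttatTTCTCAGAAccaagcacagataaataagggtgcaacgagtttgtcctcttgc
Gbp7, chr3:142530216-142530335, plus strand: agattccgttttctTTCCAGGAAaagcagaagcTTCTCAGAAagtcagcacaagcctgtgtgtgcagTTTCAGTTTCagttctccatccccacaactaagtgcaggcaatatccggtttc
Igtp, chr11:58199436-58199555, plus strand: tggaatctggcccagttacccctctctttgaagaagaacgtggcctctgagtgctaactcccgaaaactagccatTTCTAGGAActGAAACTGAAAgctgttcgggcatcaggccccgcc
Irgm1, chr11:48871421-48871540, minus strand: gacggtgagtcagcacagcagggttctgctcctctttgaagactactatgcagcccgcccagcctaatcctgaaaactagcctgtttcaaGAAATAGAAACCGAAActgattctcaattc
Irgm2, chr11:58214857-58214976, plus strand: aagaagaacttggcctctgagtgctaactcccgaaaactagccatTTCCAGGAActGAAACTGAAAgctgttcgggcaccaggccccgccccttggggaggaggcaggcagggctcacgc

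Over the whole windows of 250 bases before to 50 after the start, the ISRE-like letters were found in 7 of 7 members with an entry (in 7 of 8 windows, because Gbp3 had a second start without a match). The same letters were found in 3.44% of all 32851 promoter windows. In Gbp2 the match began 59 bases before the start, in Gbp7 53 bases and in Irgm2 64 bases. Gbp3 and Irgm1 each held a pair of matches that overlapped each other. The GAS letters were found in 4 of 7 members, Gbp5, Gbp7, Igtp and Irgm2, against 8.30% of all windows. The stretches before Igtp and Irgm2 resembled each other, with 87 of 90 aligned bases identical once shifted by 30 bases. A match is a string of letters and no measured binding.

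The 9 genes together were most abundant in endothelial-like cells, at 241 to 498.5 CPM over the 4 libraries (162 UMIs in 104 cells). Ensheathing glia-like cells came next in the WT libraries, with 220 and 282 CPM at the young and old age, but held 71.6 and 88.2 in the KO libraries. These cells, the glia that wrap olfactory axons, came almost wholly from the RoB hashtags and carried 7 of 7 ensheathing markers in every mouse, with a summed marker level of 15560 to 16900 CPM. Microglia-like cells held 74.3 to 107 CPM of the 9 genes and astroglia-like cells, the class that contains the quiescent neural stem cells, 55.4 to 67.9. In the KO libraries microglia-like cells stood above ensheathing glia-like cells, at 91.5 CPM against 71.6 in young and 107 against 88.2 in old mice. Their 95% counting intervals, drawn in the plot of levels by class, overlapped at each age, so the order of the 2 classes in KO mice is not settled.

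**Figure D1:**
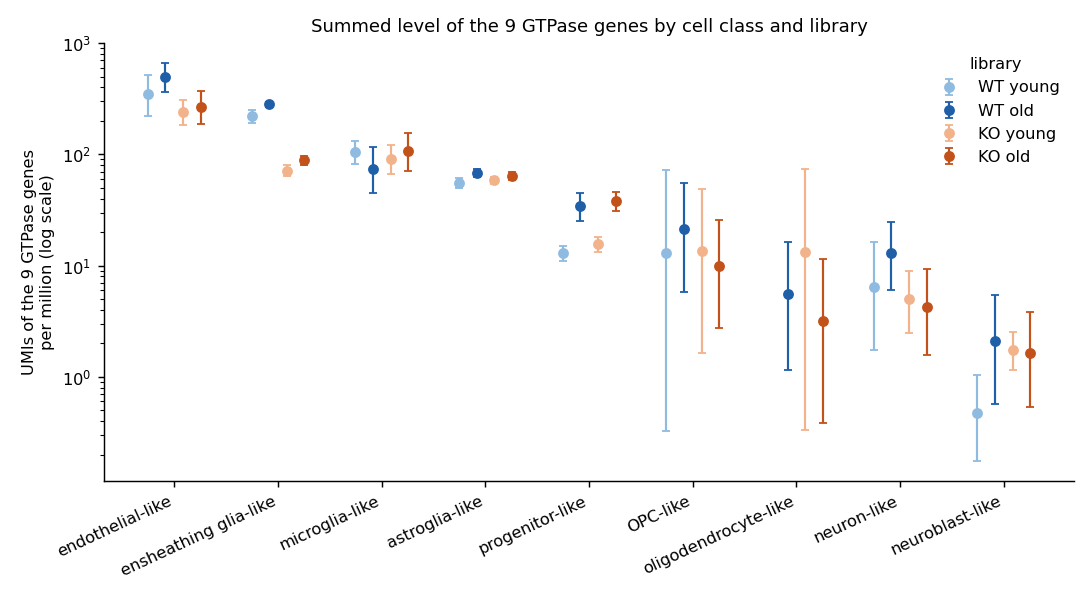
Summed level of the 9 GTPase genes in CPM (log axis) for 9 cell classes and 4 libraries, with exact 95% Poisson intervals. Each point is 1 library, so the intervals cover counting error only. In ensheathing glia-like cells both WT libraries (220 and 282) lie above both KO libraries (71.6 and 88.2), while in astroglia-like cells the 4 libraries lie between 55.4 and 67.9.

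Along the neurogenic lineage the level was high in astroglia, intermediate in progenitors and close to 0 in neuroblasts. Progenitor-like cells held 12.9 to 38.3 CPM, and neuroblast-like cells 0.477 to 2.10, which was 42 UMIs of all 9 genes in 6367 cells. Within the progenitor class, a cluster led by Nptx2, with Egfr, a receptor of activated stem cells and transit-amplifying cells, among its leading genes, held 38.3 and 71.2 CPM in the young and old WT libraries and 43.4 and 83.5 in the young and old KO libraries. The other 4 clusters of the class, led by histone genes or genes of DNA replication and mitosis, held 0 to 15.2. The Nptx2-led cluster thus lay in the range of the astroglia-like clusters, and the dividing clusters lay below it in each library that held at least 20 of their cells. The members were left out of the genes used for clustering.

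Among astroglia-like clusters the summed level ran from 19.2 to 119. The highest value was in the cluster led by Thbs4, Ecel1 and Adamts18 in WT old (119, 95% interval 91.3 to 153), and the same cluster held 68.3, 74.6 and 83.1 in WT young, KO young and KO old. The cluster led by Igsf1, Itih3 and Nkx6-2 held the least, at 19.2 to 49.5. With 1 library per group these differences have no test.

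**Figure D2:**
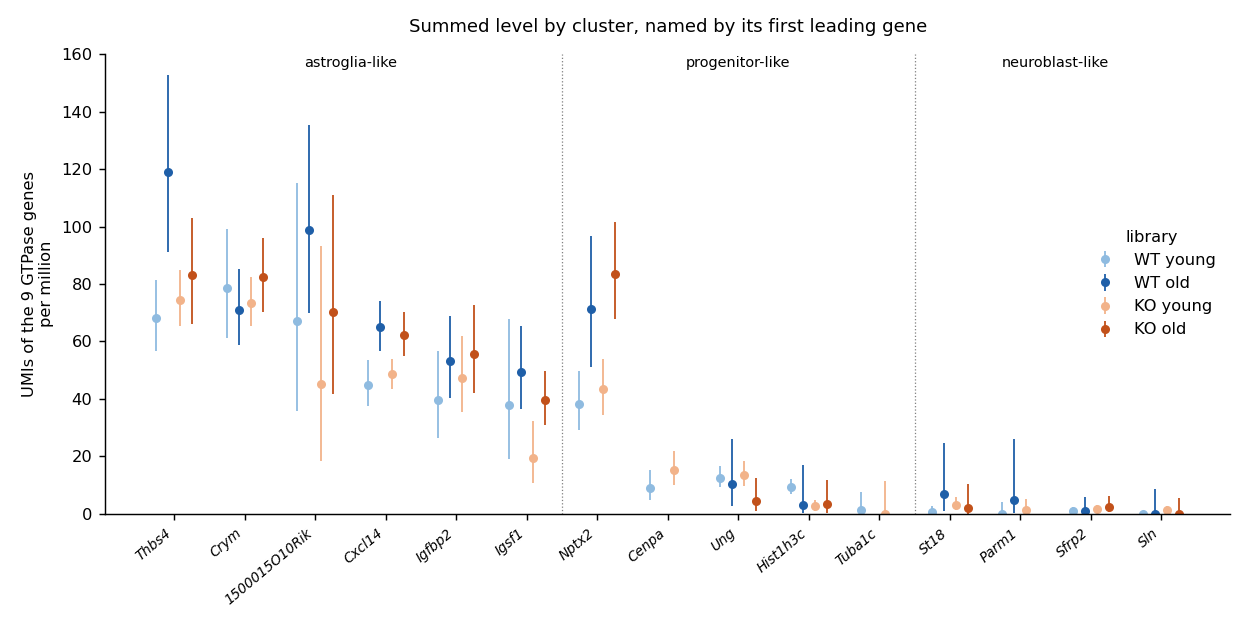
Summed level of the 9 genes in CPM (linear axis) in each cluster of the astroglia-like, progenitor-like and neuroblast-like classes, by library, with exact 95% Poisson intervals. Clusters are named by their first leading gene, and a library is shown where it held at least 20 cells. The cluster led by Nptx2 reaches 83.5 in KO old, while the replicating and mitotic clusters and all neuroblast-like clusters stay near the bottom of the axis.

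Gbp6, a GBP encoded outside the chromosome 3 cluster, gave the clearest difference between genotypes. Ensheathing glia-like cells held it at 76.6 and 41.2 CPM in the 2 WT young mice, at 52.4 and 64.7 in WT old mice, at 18.7 and 11.53 in KO young mice and at 14.4 and 19.2 in KO old mice. The 4 WT mice did not overlap the 4 KO mice, and the means were 58.7 ± 15.3 and 16.0 ± 3.66 (SD, n = 4 each). The share of all genes whose WT and KO mice did not overlap was not counted. A lack of overlap, here and for other members, is therefore a description only. Over both ages the fitted log2 fold change in KO was -1.77 ± 0.23 (SE, edgeR adjusted p = 8.7e-05 over 9706 genes). It fell in KO young against WT young mice (-1.87 ± 0.37, edgeR adjusted p = 0.0204). It also fell in KO old against WT old mice (-1.68 ± 0.25, edgeR adjusted p = 0.00072). The KO old mice were 92 to 105 weeks old and the WT old mice 80 weeks, so age differed along with genotype in every comparison of old mice.

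Iigp1, the IRG effector, showed the widest gap in level. In ensheathing glia-like cells it had 46 and 260 UMIs in the young and old WT libraries, and 0 and 1 in the KO libraries. Per mouse these were 133, 2.42, 22.5 and 116 CPM in the 4 WT mice (young mouse 1, young mouse 2, old mouse 1 and old mouse 2), and 0, 0, 0 and 0.408 in the 4 KO mice. The genotypes did not overlap, although WT young mouse 2 rested on 1 UMI. Pooled over both WT libraries the level was 537 times that of the pooled KO libraries, with a counting interval of 95.7 to 21280. That ratio rests on 1 KO UMI, and by age it was 332 in old mice (59.0 to 13160) and at least 57.9 in young mice (against 3 counts in the KO library). The fit called Iigp1 lower over both ages (edgeR adjusted p = 0.00077) and in old mice (adjusted p = 0.0042). Iigp1 passed the filter on low counts through its WT mice, so these calls are no support. Its fitted fold depends on the prior count, since KO counts were near 0, and is not given as a size.

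The remaining members differed less or less evenly. Gbp2 stood at 47.2, 2.42, 17.97 and 35.6 CPM in the WT mice (in the same order) and at 4.49, 1.92, 5.64 and 4.90 in the KO mice, so that 1 WT mouse lay within the KO range. It was lower in KO over both ages (log2 -2.49 ± 0.51, edgeR adjusted p = 0.0189), while in old mice alone the adjusted p was 0.0517. Gbp2 passed the filter on low counts through its WT mice, so its call is no support. Gbp3 was lower in KO old than in WT old mice, at 11.3 and 17.6 against 46.4 and 35.6 CPM (log2 -1.38 ± 0.25, edgeR adjusted p = 0.0094). In young mice Gbp3 stood at 18.7 and 18.3 in KO and at 26.5 and 16.97 in WT, which overlapped.

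Irgm2 stood at 35.4, 2.42, 16.5 and 17.5 CPM in the WT mice and at 3.74, 0.961, 2.51 and 7.76 in the KO mice (log2 -2.12 ± 0.53, adjusted p = 0.0713 in edgeR). Irgm1, its relative, gave -1.53 ± 0.55 (adjusted p = 0.293). Gbp7 stood at 79.6, 38.8, 92.3 and 64.2 in the WT mice and at 38.2, 44.2, 38.2 and 44.5 in the KO mice, and did not pass over both ages (log2 -0.65 ± 0.19, adjusted p = 0.166) or in old mice (-0.83 ± 0.20, adjusted p = 0.0917). In both Irgm2 and Gbp7, WT young mouse 2 was the WT mouse within the KO range. Gbp5 and Igtp were too low to be tested, with 18 and 22 UMIs in all ensheathing glia-like cells.

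**Figure D3:**
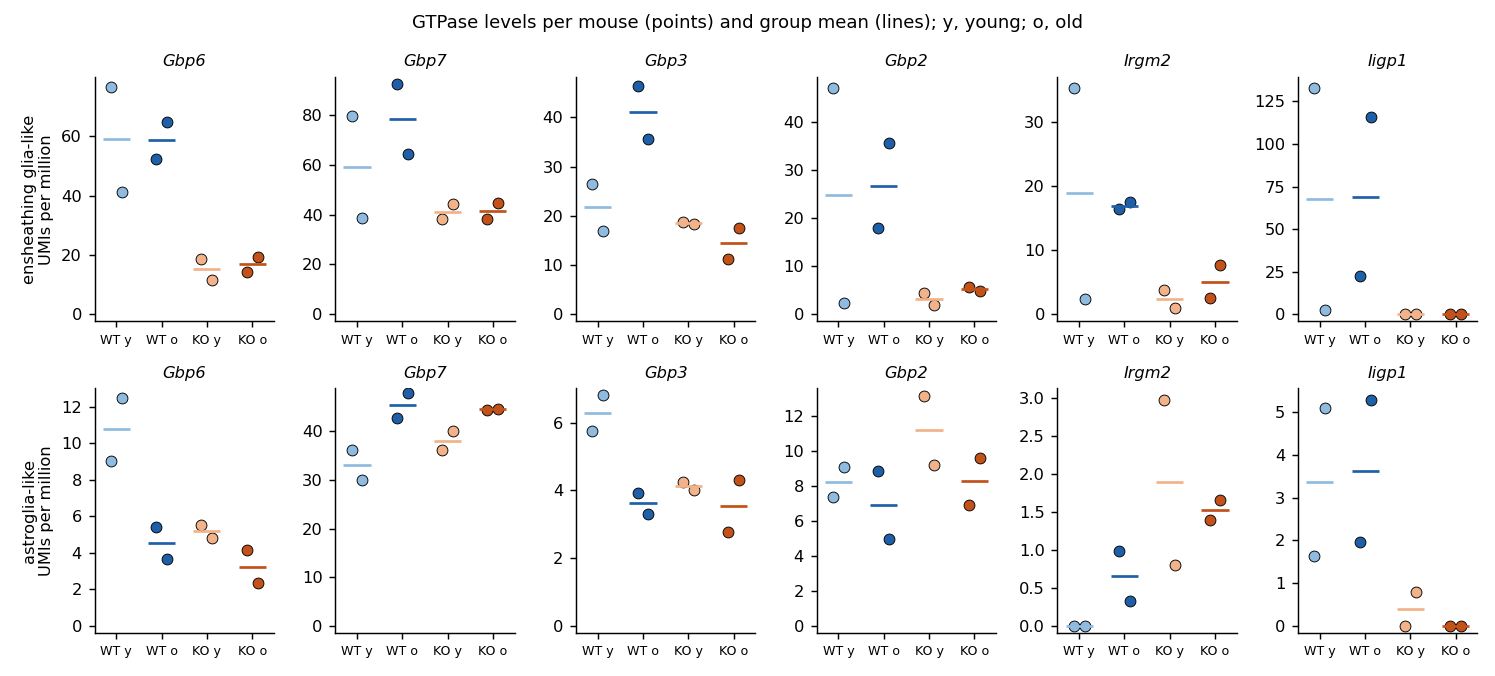
Level of 6 GTPase genes in CPM (linear axes, 1 scale per panel) in each of 8 mice, for ensheathing glia-like cells (top) and astroglia-like cells (bottom), with the mean of each group as a line. Gbp6 and Iigp1 separate all WT from all KO mice in ensheathing glia-like cells, while Gbp7 in astroglia-like cells stands at 30.1 to 47.9 in WT and 36.1 to 44.7 in KO mice. How many of all genes separate the mice in this way was not counted.

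In total 7 of the 9 members passed the filter on low counts in ensheathing glia-like cells, and 3 of them, Gbp2, Gbp6 and Iigp1, fell in KO over both ages, where 0.876% of all genes were called. In old mice 3 of 7 fell (Gbp3, Gbp6 and Iigp1, against 0.453% of all genes), and in young mice 1 of 7, Gbp6 (0.598%). No member rose in these comparisons. A gene that is low in KO passes the filter through its WT mice, as Iigp1 and Gbp2 (at most 5.64 CPM in KO mice) did. The number that passed and the calls of Iigp1 and Gbp2 are therefore no support. Without the filter, all 9 entered and 5 were lower in KO over both ages, 6 in old mice and 4 in young mice. The comparisons over both ages and at each age share mice. Leaving out 1 mouse at a time gave 1 to 4 called members over both ages, 2 to 3 in old mice and 0 to 4 in young mice. The Gbp6 call over both ages and in old mice was kept each time. Iigp1 was lost over both ages without WT young mouse 1 and in old mice without WT old mouse 2 and in DESeq2, and Gbp2 without WT young mouse 1, WT old mouse 2 or KO young mouse 2. Gbp3 in old mice was lost without WT old mouse 1 or KO old mouse 1 and in DESeq2, which called 1 of the members there, and Gbp6 in young mice without WT young mouse 1 or KO young mouse 2. In young mice 7 of 7 estimates were below 0 (median log2 -2.03, against 0.01 over all genes), but without WT young mouse 1 only those of Iigp1 and Gbp6 were, 2 of 7 (median 0.08).

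Other cell types were looked for in the same sums. Of 8 microglia markers, 2 to 4 had a UMI in ensheathing glia-like cells, with a summed level of 53.1 to 98.3 CPM in WT and 82.1 to 105 in KO mice, and Itgam and Cx3cr1 were at 0 in all 8 mice. Of 6 endothelial markers, Flt1, Cdh5 and Ly6c1 were at 0 in all 8 mice, while the list, through the others, summed to 339 to 620 in WT and 167 to 400 in KO mice. Macrophage markers summed to at most 0.548 and T or NK cell markers to at most 0.961. Other lists were higher: oligodendrocyte markers summed to 6747 to 7831 in WT and 7837 to 8114 in KO mice. Astroglia markers summed to 3484 to 4008 in WT and 3989 to 4469 in KO mice. Neuroblast markers stood at 91.4 and 752 in WT young mice 1 and 2, 14.3 to 16.5 in WT old, 82.6 to 332 in KO young and 18.2 to 19.2 in KO old mice. The part of these lists was not tested. The difference in the endothelial list moved with genotype, and its part in the result was not tested. Fewer transcripts per cell and fewer cells with transcripts cannot be told apart in sums.

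Iigp1 UMIs sat in very few cells. In WT old ensheathing glia-like cells, 32 of 522 cells (6.13%) held a UMI, and a single cell held 104 of the 260 UMIs. The 3 highest cells held 75.4% of Iigp1 UMIs and 66.3% of Gbp2 UMIs, but 8.33% of Gbp7 and 12.6% of Gbp6 UMIs. In WT young mouse 1, 41 of its 45 Iigp1 UMIs came from 1 of 57 cells. Gbp6 and Gbp7 were by contrast spread over 130 and 166 of 522 cells. For comparison, 0.0348% of WT young neuroblast-like cells and none of 319 WT old ones held an Iigp1 UMI, at median depths of 4151 and 5681 UMIs against 5983 and 8326 in ensheathing glia-like cells. A count of 0 in 319 cells allows a share of up to 0.940%. In the KO libraries the share was 0.113% and 0.378% in neuroblast-like cells and 0 and 0.153% in ensheathing glia-like cells, where it rested on 1 UMI in 1 cell, so the KO ensheathing glia-like shares were not above those of a class in which the gene was near 0.

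**Figure D4:**
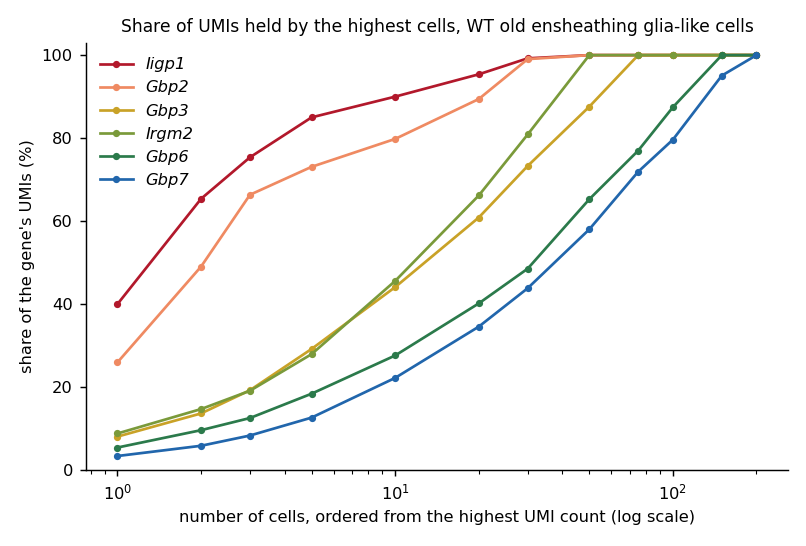
Share of a gene's UMIs (linear axis, percent) held by the highest 1 to 200 of 522 WT old ensheathing glia-like cells (log axis), each gene with its own order of cells. The curve of Iigp1 starts with 104 of 260 UMIs in 1 cell and reaches 90.0% with 10 cells, whereas Gbp7 reaches 22.2% with 10 cells.

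Cells with an Iigp1 UMI were also rich in the other members. In WT old, these 32 cells held 302 CPM of Gbp2 (95% interval 239 to 378) against 6.63 (4.37 to 9.65) in the other 490 cells, and 271 CPM of Gbp7 against 62.6. Gbp3 stood at 200 against 27.0, Gbp6 at 212 against 45.4 and Irgm2 at 70.7 against 12.3. Median depth was 7480 UMIs in the cells with an Iigp1 UMI and 8347 in the others. In WT young only 5 of 169 cells held an Iigp1 UMI, with 370 CPM of Gbp2 against 6.05 in the rest. Cells chosen by one member may be chosen for the rest, so this is a description without a test.

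Because so few cells carried Iigp1, the fit was repeated without the 1 cell per mouse that held the most UMIs of the 9 genes, an alternative added after seeing these values. Over both ages Gbp6 remained lower in KO (log2 -1.56 ± 0.23, edgeR adjusted p = 0.00065), while Iigp1 (adjusted p = 0.0598) and Gbp2 (log2 -1.35 ± 0.57, adjusted p = 0.425) no longer passed, which left 1 of 7. In old mice all of Gbp3, Gbp6 and Iigp1 still passed (adjusted p = 0.0098, 0.000515 and 0.00081). In young mice 0 of 7 passed in edgeR, with Gbp6 at -1.48 ± 0.38 (adjusted p = 0.111). That cell held 78, 10, 63 and 152 UMIs of the 9 genes in the WT mice and 4 to 11 in the KO mice.

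Per cell, thinned to 1000 UMIs to remove the differences in depth, the share of ensheathing glia-like cells with a UMI of any member was 9.47% and 17.2% in the young and old WT libraries and 8.03% and 8.24% in the young and old KO libraries. Without thinning these shares were 38.5%, 57.5%, 41.1% and 42.7%, at median depths of 5983, 8326, 9543 and 8308 UMIs. In neuroblast-like cells the thinned share was at most 0.627%. No cell was left out, since every retained cell had at least 1000 UMIs.

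In astroglia-like cells the most abundant member did not separate the genotypes. Gbp7 stood at 36.1, 30.1, 42.7 and 47.9 CPM in WT mice and 36.1, 40.02, 44.4 and 44.7 in KO mice, which overlapped (log2 0.13 ± 0.12 over both ages, edgeR adjusted p = 0.729). A total of 6 of 9 members passed the filter and 1, Iigp1, was lower in KO over both ages (1.42% of all genes were called). Iigp1 was at 1.64, 5.11, 1.96 and 5.29 CPM in the WT mice and at 0, 0.800, 0 and 0 in the KO mice, without overlap. Barcodes with almost no RNA held Iigp1 at 1.14 and 5.10 CPM in the young and old WT libraries. In the young and old KO libraries they held 0 (up to 16.96 by the counting interval) and 0.267. The part of such free transcripts in the Iigp1 level of astroglia-like cells was not tested. The pooled WT level was 28.4 times the pooled KO level, with a counting interval of 7.25 to 245, and the adjusted p was 0.0097 in edgeR. By age the ratio was 13.01 in young mice (2.84 to 121) and at least 8.98 in old mice (against 3 counts in the KO library). Iigp1 passed the filter through its WT mice here too, so its call is no support. The call rested on 32 UMIs in WT and 2 in KO, it was lost without WT young mouse 2 or WT old mouse 2, and without the top cell of each mouse Iigp1 was no longer abundant enough to be tested.

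At single ages no member was called for genotype in astroglia-like cells. In young mice 0 of 6 passed, where 2.49% of all genes did, and 2 of 6 had an unadjusted p under 0.05 in edgeR. In old mice 0 of 6 passed (0.240% of all genes), with 1 of 6 at an unadjusted p under 0.05. DESeq2 called 0 in old mice and gave no member an adjusted p in young mice. Gbp2 stood at 4.96 to 9.08 CPM in WT and 6.93 to 13.2 in KO mice, with no passing difference (log2 0.41 ± 0.27, adjusted p = 0.603).

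**Figure D5:**
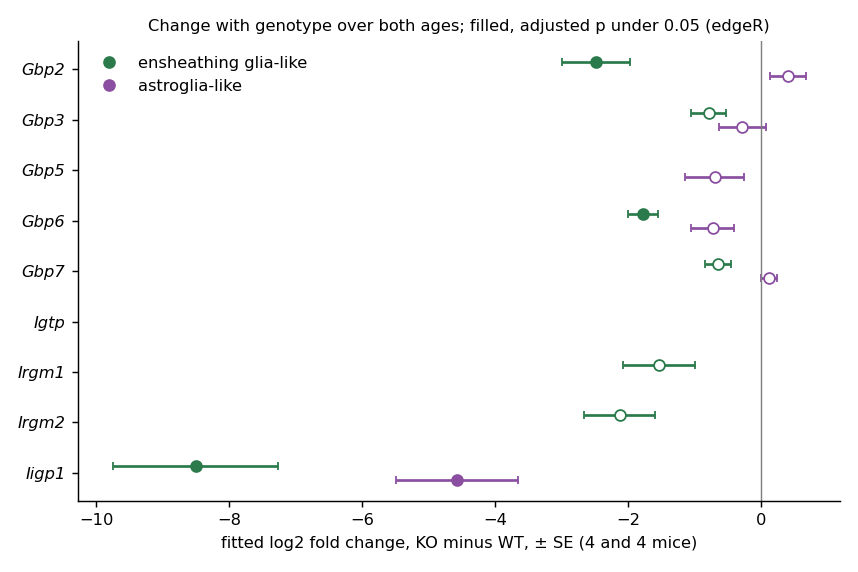
Fitted log2 fold change of KO against WT over both ages, with standard errors, for the members that could be tested in ensheathing glia-like cells (7) and astroglia-like cells (6), from 4 WT and 4 KO mice. Filled points had an edgeR adjusted p under 0.05. In ensheathing glia-like cells Gbp2, Gbp6 and Iigp1 are filled, in astroglia-like cells Iigp1 alone, and the size for Iigp1 depends on the prior count.

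Both glial classes were compared within the same mice, using RoB hashtags only, in a fit added after the levels were seen. In WT mice 6 of 6 tested members were higher in ensheathing glia-like than in astroglia-like cells: Irgm2 by 4.37 ± 0.75, Iigp1 by 4.22 ± 0.38, Gbp3 by 4.16 ± 0.47, Gbp6 by 3.37 ± 0.32, Gbp2 by 2.26 ± 0.46 and Gbp7 by 1.14 ± 0.20 (log2, each with an edgeR adjusted p of 8.7e-05 or less, 4 mice). Of all genes 43.7% were called. In WT RoB astroglia-like cells Irgm2 had 0, 0, 2 and 0 UMIs (young mice 1 and 2, then old mice 1 and 2). Gbp3 had 1, 0, 3 and 1 and Iigp1 1, 0, 1 and 8 there, and Gbp2 and Gbp6 at most 4 and 6 per mouse. These members passed the filter mainly through ensheathing glia-like cells, so their calls in this fit are no support. Sizes resting on counts near 0 depend on the prior count. In KO mice 2 of 6 were higher (45.5% of all genes were called), Gbp3 by 2.23 ± 0.46 (adjusted p = 0.000107) and Gbp6 by 1.96 ± 0.42 (adjusted p = 0.000155). Gbp2 gave -0.12 ± 0.59 and Gbp7 0.43 ± 0.21 there, neither passing.

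The difference of the genotype change between the classes was tested in the same fit, and 0 of 6 members passed, where 0.0804% of all genes did. The unadjusted p was under 0.05 for 5 of 6 members in edgeR and DESeq2 called 0. The largest estimate among members with counts in every group was Gbp2 at -2.38 ± 0.80 (adjusted p = 0.726). A different change of any member in the 2 classes was therefore not shown.

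Within ensheathing glia, the cells fell into a cluster led by Il13ra2 and Npy and one led by Clca3a1, Vtn and Fibin. In the former the summed level was 124 and 322 CPM in the young and old WT libraries and 56.6 and 75.2 in the young and old KO libraries. In the latter it was 349 and 230 against 107 and 115. Both clusters thus had WT above KO libraries at each age, while the order of WT young and WT old differed between them. Of the 46 Iigp1 UMIs of WT young, 43 lay in the cluster led by Clca3a1, and of the 260 of WT old, 231 lay in the other. A single cell of WT young mouse 1 held 41 of those 43 UMIs, and 78 UMIs of all members together. A single cell of WT old mouse 2 held 104 of the 231, and 152 UMIs of all members together. The Iigp1 split thus rests largely on few cells. Whether the order of WT young and WT old differs between the clusters without these cells was not tested.

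Age was the second comparison of the design. In ensheathing glia-like cells 0 of 7 members were called between young and old WT mice (1.15% of all genes were called), with 1 of 7 at an unadjusted p under 0.05 in edgeR, and DESeq2 gave no member an adjusted p. The nearest was Gbp3, at 26.5 and 16.97 CPM in young and 46.4 and 35.6 in old WT mice (log2 0.91 ± 0.37, adjusted p = 0.239). Between young and old KO mice 0 of 7 were called (0.299% of all genes), 0 of 7 at an unadjusted p under 0.05 and 0 by DESeq2. The interaction of age and genotype was called for 0 of 7 members (0.0412% of all genes), with 1 of 7 at an unadjusted p under 0.05, and DESeq2 again gave none an adjusted p.

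In astroglia-like cells 1 of 6 members was called for age in WT mice, where 16.6% of all genes were. This was Gbp6, at 9.02 and 12.5 CPM in young and 5.40 and 3.64 in old WT mice, which did not overlap (log2 -1.32 ± 0.44, edgeR adjusted p = 0.0444). It rested on 11 to 22 UMIs per mouse, it was lost when any 1 of the 4 WT mice or the top cell of each mouse was left out, and DESeq2 gave it no adjusted p. Gbp7 stood at 36.1 and 30.1 in young and 42.7 and 47.9 in old WT mice (log2 0.48 ± 0.18, adjusted p = 0.0720). Among vSVZ-tagged cells alone, Gbp7 rose (log2 0.64 ± 0.20, edgeR adjusted p = 0.0330) and Gbp6 fell (-1.68 ± 0.56, adjusted p = 0.0392). The estimates of Gbp7 and Gbp6 thus had opposite signs.

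In KO mice 0 of 6 members were called for age in astroglia-like cells (4.71% of all genes), 0 of 6 at an unadjusted p under 0.05, and 0 of the 4 with an adjusted p in DESeq2. Gbp7 was at 36.1 and 40.02 in young and 44.4 and 44.7 in old KO mice (log2 0.25 ± 0.16, adjusted p = 0.433). The interaction was called for 0 of 6 members (1.02% of all genes), with 0 of 6 at an unadjusted p under 0.05 and no adjusted p for any member in DESeq2, so the age change of Gbp6 or Gbp7 was not shown to differ between genotypes.

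Tissue was compared within the 8 mice. Astroglia-like cells with vSVZ hashtags had more Gbp7 than those with RoB hashtags by 0.44 ± 0.14 (log2, edgeR adjusted p = 0.0292), 1 of the 2 members that passed the filter, where 12.6% of all genes were called. The level was higher in the vSVZ in all 8 mice, from 30.9 to 52.4 against 24.1 to 42.4 CPM. DESeq2 did not call it, and leaving out 1 of 4 mice (both WT old mice, KO young mouse 1 or KO old mouse 1) removed the call.

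Microglia-like cells, which the sort was meant to deplete, were compared with astroglia-like cells within 6 mice. Irgm2 was higher in microglia-like cells by 3.30 ± 0.67, Gbp5 by 1.81 ± 0.55 and Gbp7 by 0.61 ± 0.21 (log2, edgeR adjusted p = 6.5e-06, 0.00239 and 0.00831), 3 of 5 tested members against 67.0% of all genes called. The call of Gbp7 was lost without KO old mouse 2, in DESeq2, without the filter and at Leiden resolution 0.5. Gbp3 gave 0.96 ± 0.54 and Iigp1 0.54 ± 1.05, neither passing. Gbp6 had 0 UMIs in microglia-like cells of all 4 libraries (329 cells), which allows a level of up to 4.19 CPM in WT young and 11.7 in WT old. Gbp7 was tested for genotype in young microglia-like cells and was not called, with 0 of 1 called, 0 of 1 at an unadjusted p under 0.05 and 0 by DESeq2 (0.573% of all genes called).

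In progenitor-like cells Gbp7 was the only member that could be tested. It was not called for age in KO mice (0.735% of all genes called, 1 of 1 at an unadjusted p under 0.05, no adjusted p in DESeq2) or for genotype in young mice (0.174% of all genes called, 0 of 1 at an unadjusted p under 0.05, 0 by DESeq2). It stood at 6.31 and 10.7 CPM in young and 18.7 and 37.0 in old KO mice. The Nptx2-led cluster made up 169 of 780 progenitor-like cells in KO young and 100 of 209 in KO old, and its part in these levels was not tested.

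Iigp1 was also read in KO endothelial-like cells. These cells held 2 and 8 Iigp1 UMIs in the young and old WT libraries and 6 and 7 in the KO libraries, or 30.3, 90.6, 24.5 and 52.1 CPM. The intervals were wide (9.01 to 53.4 in KO young and 20.96 to 107 in KO old), and the pooled WT level was 1.89 times the KO level with a counting interval of 0.741 to 4.66. Iigp1 UMIs came from 3 of 43 KO young and 4 of 25 KO old cells. Gbp3 stood at 136 and 90.6 in the WT libraries and 32.7 and 14.9 in the KO libraries, and Gbp7 at 121 and 90.6 and at 131 and 127. Ifngr1 itself had 7 and 10 UMIs in KO endothelial-like cells, 28.6 and 74.5 CPM, against 106 and 34.0 in WT. With 14 to 43 cells per library and no test, these values bound the levels only loosely.

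Other interferon-inducible GTPases were few in these cells. Of 18 listed, 14 were found, 2 passed the filter in ensheathing glia-like cells and 1 in astroglia-like cells. Gm4951, an IRG like Iigp1, had 48 UMIs in WT and 0 in KO ensheathing glia-like cells, a level at least 28.1 times higher in WT (set against 3 counts over both KO libraries), and 26 and 0 in astroglia-like cells. By age the bound in ensheathing glia-like cells was 10.1 in young and 17.02 in old mice (against 3 counts in the KO library). Gm4951 passed the filter through its WT mice, so its call there is no support.

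Gbp2b, a GBP gene next to Gbp2, went the other way. It had 0 UMIs in WT cells of both classes and 74 in KO ensheathing glia-like and 148 in KO astroglia-like cells, at least 14.1 and 27.8 times higher in KO (against 3 counts over both WT libraries). By age the bounds were 2.21 in young and 12.8 in old mice in ensheathing glia-like cells, and 11.4 and 17.4 in astroglia-like cells. Per mouse the KO level in ensheathing glia-like cells was 8.65 to 11.9 CPM. Gbp2b passed the filter through its KO mice in both classes, so its calls are no support.

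A list of 24 other genes of the interferon-γ pathway was read in the same fits. Of these, 15 passed the filter in ensheathing glia-like cells and 6 fell in KO over both ages (0.876% of all genes were called), among them the targeted Ifngr1 and Ifnar1 and also Tap1, Psmb9 and Psmb8. Tap1, a subunit of the peptide transporter for MHC class I, fell by 1.95 ± 0.33 on the log2 scale. Psmb9 and Psmb8, subunits of the immunoproteasome, fell by 2.78 ± 0.57 and 1.87 ± 0.44. Psmb8 stood at 0.961 to 5.99 CPM in KO and 11.8 to 24.95 in WT mice of this class, and Ifngr1 at 1.88 to 4.49 in KO mice. Both passed the filter through their WT mice, so their calls and the number that fell are no support. In astroglia-like cells 14 passed and 3 fell (1.42% of all genes were called), the targeted Ifngr1 and Ifnar1 and also Psmb8, and none rose in either class.

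The genes whose level followed the mean of the 9 members most closely over 24 sums of a class and a library with at least 50 cells (which left out endothelial-like cells) were Ifih1 (Pearson's r = 0.952) and Ddx58 (0.924), sensors of viral RNA, then Ppcs (0.918), Dab2 (0.907) and Cd274 (0.899), the checkpoint ligand PD-L1. Of these sums, all 5 had their highest level in ensheathing glia-like cells. Among 12620 genes compared, the 24 sums share libraries and classes, and so the values are descriptions. Of the members themselves, Gbp3 (0.917) and Irgm1 (0.913) followed the mean of the other 8 most closely, and Gbp5 (0.400) and Iigp1 (0.620) least.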

How the data were processed

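Droplet single-cell RNA sequencing and hashtag libraries of the 4 groups were read from deposited tables of UMI counts per gene and barcode, whole numbers that the authors had made with kallisto and bustools after a filter for index hopping and had not normalized. The submitters' processing notes also name Scanpy 1.6.0 and the genome build GRCm38, while the annotation version behind the counts is not given in the sources used here. Whether the deposited counts hold spliced transcripts, unspliced ones or both was not stated, which bears on the overlapping Igtp and Irgm2 genes. One further sample, which the labels put in no group, was not used.

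Barcodes with 1000 to 20000 UMIs, 100 to 6000 genes and at most 10% mitochondrial UMIs were kept, doublets predicted by Scrublet were removed (1.03 to 2.67% per library) and hashtags were called with a multinomial mixture. Cells were clustered in scanpy 1.11.5 (Leiden resolution 1, interferon genes left out) and classes were named from markers. Depth was 1000 UMIs or more per retained cell, and a level rests on the UMIs of its class. Intervals are exact 95% Poisson intervals.

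UMI sums per mouse and class (at least 20 cells) were tested with edgeR 4.0.16 (quasi-likelihood, TMM, filterByExpr) in R 4.3.3, with Benjamini-Hochberg adjustment over all genes tested and a threshold of 0.05. The alternatives were DESeq2 1.42.0, no filter, library totals, a hashtag posterior of at least 0.95, Leiden resolution 0.5, kept doublets, a minimum of 2000 UMIs, leaving out each mouse, and others added after seeing the data. On simulated counts 69.0% of 200 changed genes were recovered in ensheathing glia-like cells (11 false calls among 9706 genes) and 81.5% in astroglia-like cells (8 among 10831). The changed genes were drawn at random from all genes tested and changed by the same size, up or down, between genotypes. Scarce genes with most UMIs in few cells, such as Iigp1, were not simulated apart, so these shares need not hold for the members. The 2 mice of a group shared 1 reaction, so p-values do not cover the spread between reactions.

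The members and gene lists were chosen with earlier results of these data known. Named genes were the 9 members, genes of the lists of other interferon-inducible GTPases and of the interferon-γ pathway that were targeted or called, and the 5 genes most like the members, and a called gene of the pathway list is not reported here. Positions are from GENCODE vM21 (GRCm38), and promoters from RefSeq.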

Additional observations from a re-analysis of the deposited data

Results flagged for a closer look

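A cluster that stayed unnamed and entered no comparison, with Postn and Cldn5 among its leading genes, held the 9 genes at a summed level of 168 and 192 CPM in the young and old WT libraries and 113 and 180 CPM in the KO libraries, above the limit that a count of 0 allows. It had 23, 84, 42 and 117 cells, and its Iigp1 UMIs numbered 1, 9, 0 and 0 in the same order. In a cluster left unnamed for its low depth, led by Grin2c, the summed level was 86.9 CPM in the WT old library (7 UMIs), while the KO libraries held 30.5 CPM at the young age (5 UMIs) and 118 CPM at the old age (12 UMIs). A cluster of 39 cells led by Dcn held 53.2 CPM in KO young, from 9 UMIs, and these values were also above that limit. The differences between libraries were not tested.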

How the results depend on the processing

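No called member changed sign under the alternatives in which it was tested. Estimates that were not called did: in ensheathing glia-like cells without WT young mouse 1, 2 of 7 members were below 0 for genotype in young mice, against 7 of 7 with it, and for age in WT, where 3 of 7 were below 0, 0 of 7 were without WT young mouse 1 (median log2 1.85) and 7 of 8 without WT young mouse 2 (-0.91). Of the alternative values of the counts of called members and of the class levels, 297 stayed on their side, 29 were weaker, 7 stronger and 6 moved. Unless stated, the cause was not tested. In ensheathing glia-like cells, 3 members were called over both ages, 3 in old and 1 in young mice. Without the filter these became 5, 6 and 4. Without the top cell of each mouse, 1 was called over both ages and 0 in young mice. In the cluster led by Il13ra2 alone, 1 was called over both ages and 0 in young mice, and in the cluster led by Clca3a1 alone 1, 0 in old and 0 in young mice. In old mice DESeq2 called 1 and library totals 5. In astroglia-like cells the 1 call over both ages became 0 with a posterior of at least 0.95, at Leiden resolution 0.5, without the top cell and in vSVZ hashtags alone, in each of which Iigp1 was too low to be tested. The 1 call for age in WT became 0 at Leiden resolution 0.5, where Gbp6 was too low to be tested, and without the top cell, and 2 in vSVZ hashtags, while DESeq2 gave Gbp6 no adjusted p. The 0 calls for genotype in old mice became 1 without the filter, and the 1 call for tissue became 0 in DESeq2. Leaving out 1 mouse at a time gave 1 to 4, 2 to 3 and 0 to 4 calls in ensheathing glia-like cells (both ages, old, young), 0 to 1 in astroglia-like cells over both ages, 0 to 0 for age in WT, 0 to 1 for tissue and 1 to 4 in microglia-like against astroglia-like cells. At Leiden resolution 0.5 the summed level was 54.5 in KO young astroglia-like cells and 9.27, 8.86, 8.80 and 3.75 in progenitor-like cells (WT young, WT old, KO young, KO old), and with doublets kept it was 79.2 in KO old ensheathing glia-like cells. Comparisons between groups could not be paired, because mice of separate groups share no more than a hashtag number, while tissues and cell classes were compared within mice. Depth limits Igtp, which passed the filter in no comparison with all mice, Gbp5 in ensheathing glia-like cells and all members in neuroblast-like cells.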
